A study of Mus musculus with 7 samples.

Results

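Syndecans, glypicans and matrix proteoglycans are the core proteins that carry sulfated sugar chains, and 10 of their genes are described here: Sdc1, Sdc2, Sdc3, Sdc4, Gpc1, Gpc6, Vcan, Bgn, Dcn and Lum. The genes were chosen by name, with earlier results of these data known. Each was given the JUNB regions whose summit lay nearest to an end of that gene, within 100 kb, among 21900 protein-coding genes. The 10 genes owned 9 of 12655 regions, and these 9 belonged to 4 genes. Sdc4 and Gpc1 held 7 of the 9 regions, Sdc2 and Sdc3 held 1 each, and Sdc1, Gpc6, Vcan, Bgn, Dcn and Lum held 0.

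The regions came from CUT&RUN, in which a nuclease tethered to an antibody releases the DNA around a bound protein. The cells were iMGT-Myh6-eGFP-MEF, a line of mouse embryonic fibroblasts with a doxycycline-inducible set of the cardiac factors Mef2c, Gata4 and Tbx5 (MGT) and an eGFP reporter for the cardiac gene Myh6. All groups received doxycycline and were harvested at day 1 after MGT induction. The siControl group had a control siRNA, and the siChst7 group had, by its titles and treatment labels, an siRNA against Chst7. The labels' treatment protocol lists siJunb, siH1f0 and siControl, and not siChst7. Each group had 2 JUNB libraries, and the 3 IgG libraries were not analysed here. The results are those of a single engineered line with no uninduced cells, and the labels call the replicates biological without saying whether cultures were separate.

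JUNB is a subunit of AP-1, a dimeric transcription factor that binds the DNA word TGANTCA and is active in growing and stressed fibroblasts. Syndecans span the plasma membrane and glypicans are held to it by a lipid anchor; both carry heparan sulfate, which binds growth factors and matrix proteins. Versican (Vcan) is a large secreted core protein that binds hyaluronan. Biglycan (Bgn), decorin (Dcn) and lumican (Lum) are small leucine-rich proteoglycans that bind collagen fibrils. Chst7 transfers sulfate to chondroitin, a chain carried by versican, biglycan and decorin and by some syndecans. The study's question, as far as its titles give it, is whether targeting this enzyme changes where JUNB sits early in cardiac reprogramming.

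The 4 lists held 4735 to 10163 peaks, and siChst7 replicate 1 was the longest while siChst7 replicate 2 was the shortest. The lowest −log10 q was 2.00 to 2.02 in each list, and the median fold enrichment was 6.61 to 6.80. Among the fibroblast markers, 4 of 9 (Col1a1, Fbn1, Thy1 and Vim) owned a region in all 4 lists, and Col3a1 and Pdgfra owned 0. The same count was 3 of 5 for endothelial, 3 of 5 for epithelial, 0 of 5 for macrophage and 0 of 5 for cardiomyocyte markers. A region near a gene is binding and not expression, so these counts do not check the identity of the cells.

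The RefSeq promoter table (GRCm38.p6, the assembly of mm10) held 5 of the 10 genes: Sdc1, Sdc3, Sdc4, Vcan and Bgn. Shown are the 250 bases before the start of transcription of Sdc4, which had the strongest region, of Sdc3, whose region was called only with siChst7, and of Vcan, which lay farthest from any region. They are written 5′ to 3′ on the strand of the gene, at chr2:164443189-164443438 (minus strand), chr4:130792287-130792536 (plus strand) and chr13:89742513-89742762 (minus strand). Capitals would mark TGANTCA, which reads the same on both strands, and no capitals appear.
Sdc4: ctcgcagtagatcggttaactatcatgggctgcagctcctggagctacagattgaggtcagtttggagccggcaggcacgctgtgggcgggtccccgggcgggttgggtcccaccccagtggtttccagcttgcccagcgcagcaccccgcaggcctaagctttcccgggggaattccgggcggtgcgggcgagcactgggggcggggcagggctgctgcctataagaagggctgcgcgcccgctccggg
Sdc3: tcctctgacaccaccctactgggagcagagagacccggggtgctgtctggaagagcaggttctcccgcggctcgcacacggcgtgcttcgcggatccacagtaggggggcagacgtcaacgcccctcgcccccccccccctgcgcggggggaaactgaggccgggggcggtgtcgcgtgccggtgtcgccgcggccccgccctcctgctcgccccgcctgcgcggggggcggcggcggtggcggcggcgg
Vcan: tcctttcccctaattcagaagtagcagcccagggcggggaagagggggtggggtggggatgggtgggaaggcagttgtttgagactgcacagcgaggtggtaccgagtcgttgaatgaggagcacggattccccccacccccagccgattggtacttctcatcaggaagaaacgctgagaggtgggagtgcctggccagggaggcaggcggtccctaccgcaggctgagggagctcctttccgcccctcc

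None of the 5 promoters held TGANTCA in these 250 bases, and none overlapped a region of any list. The share over all 32851 promoters was 4.06%, so 0 of 5 is near that share. Of the same 32851 promoters, 6.75% held the word, against 20.8% of the 289 promoters that a region of all 4 lists overlapped. The absence of the word says only that these letters are not in this window. The 3 printed sequences were rich in CpG, with 19 CpG in Sdc4, 32 in Sdc3 and 10 in Vcan, where the median promoter of the table had 6. From the start of transcription, the nearest summit was 1.5 kb away for Sdc4 (1 list), 45.3 kb for Sdc3 (2 lists), 150 kb for Sdc1 (4 lists) and 33.8 kb for Bgn (2 lists).

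Sdc4 encodes syndecan-4, a receptor that works with integrins in focal adhesions. It owned 3 regions, and the summits of all 3 lay inside the gene (chr2:164424247-164443188, minus strand). The plots number the regions of a gene in order of coordinate. The strongest (Sdc4 region 2), chr2:164438505-164439862, lay 4.2 kb inside the gene from the start of transcription. Its fold enrichment, as the authors' peak caller gave it, was 12.8 and 10.8 in the siControl lists and 22.5 and 14.4 in the siChst7 lists. The siChst7 values were both above the siControl values, and siChst7 replicate 1 was highest. The −log10 q was 22.3, 17.9, 50.02 and 24.1 in the same order. Within each list, 8.78%, 12.4%, 1.67% and 4.84% of peaks had a higher fold. Its 4 summits fell within 45 bp of each other, where the median spread over the 2785 regions in all 4 lists was 186 bp.

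Sdc4 region 1, chr2:164431740-164433654, was wider and lay 11.1 kb from the start of transcription, or 7.9 kb from the other end of the gene. Its folds were 9.61 and 8.67 in siControl and 11.6 and 9.65 in siChst7. The groups did not overlap, but siControl replicate 1 and siChst7 replicate 2 were nearly equal. Peaks there were 1263 to 1795 bp wide, against list medians of 376 to 446 bp. The summits spread over 892 bp, with that of siChst7 replicate 2 apart from the other 3. Sdc4 region 3, chr2:164441616-164441958, was the closest to the start of transcription, at 1.5 kb. It was called in siChst7 replicate 1 alone, with a fold of 4.89, and 83.6% of the peaks of that list had a higher fold.

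Sdc2 encodes syndecan-2, a syndecan of mesenchymal cells. Its 1 region, chr15:33046879-33047913, lay 12.5 kb beyond the higher-coordinate end of the gene (chr15:32920723-33034721), and the next gene, Cpq, was 35.9 kb away. The folds were 10.1 and 6.87 in siControl and 10.4 and 6.94 in siChst7. The groups overlapped, and replicate 1 was the higher library in each. Among the 5 member regions in all 4 lists, it was the only one whose siRNA groups overlapped. Over all 2785 regions in all 4 lists, 21.9% had both siChst7 folds above both siControl folds and 12.6% had both below.

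Sdc3 encodes syndecan-3, best known from nerve and muscle. Its 1 region, chr4:130837432-130837946, lay 11.5 kb beyond the 3′ end of the gene (chr4:130792537-130826318, plus strand). It was called in both siChst7 lists, with folds of 5.77 and 5.05, and in neither siControl list. Both peaks were weak: the −log10 q was 5.04 and 3.34, and 62.8% and 81.0% of the peaks of the 2 lists had a higher fold. With all lists reduced to the best 4735 peaks, the region stayed in 1 list. Sdc1, which encodes the syndecan of epithelia and plasma cells (chr12:8771396-8793716), had no region in any list, and the nearest summit was 127.8 kb from the gene.

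Gpc1 encodes glypican-1, a co-receptor for fibroblast growth factors. It owned 4 regions, and all lay outside the gene (chr1:92831645-92860211), on the side of its lower coordinate. The strongest was chr1:92799431-92800276, 31.6 kb from the gene, with folds of 7.20 and 5.95 in siControl and 10.7 and 9.46 in siChst7. The siChst7 values were both above the siControl values. In the lists, 42.1% and 62.7% of siControl peaks and 16.5% and 18.3% of siChst7 peaks had a higher fold.

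The farthest Gpc1 region, chr1:92745020-92745715, was also in all 4 lists, 86.4 kb from the gene and 96.4 kb from the next gene, Otos. Its folds were 4.44 and 4.43 in siControl and 6.79 and 4.93 in siChst7, and the groups did not overlap. These peaks were near the end of 3 of the lists: the −log10 q was 2.77, 2.50, 7.07 and 3.71. The region was left in 2 lists with 50% reciprocal overlap or a q of at most 0.001, and in 1 list with a fold of at least 5 or at equal list length. The region chr1:92769290-92769692, at 62.2 kb, had folds of 6.87 and 4.74 in siControl and 6.92 in siChst7 replicate 1, and no peak in siChst7 replicate 2. At equal list length it was left in 1 list. The region chr1:92806913-92807111, at 24.7 kb, was called in siChst7 replicate 1 alone, with a fold of 5.77. Assignment at such distances rests on the nearest gene end and on no measured contact.

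**Figure D1:**
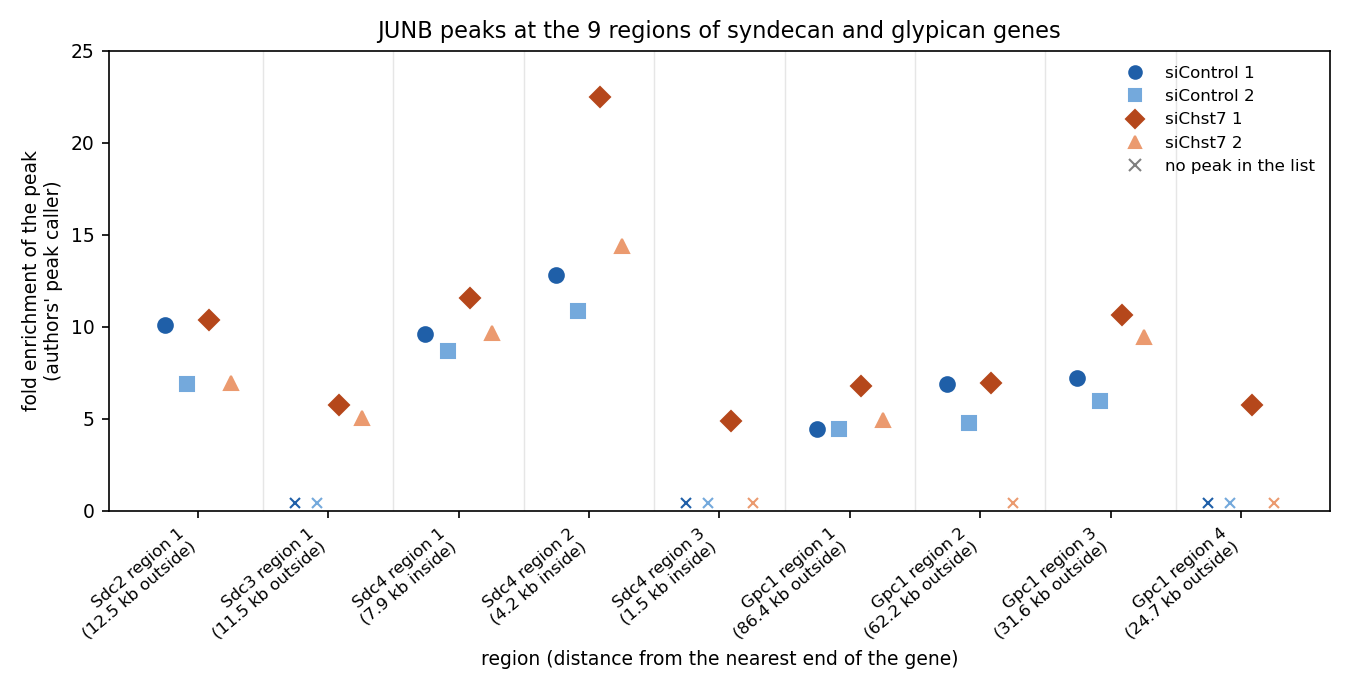
Fold enrichment (vertical axis, authors' peak caller) at the 9 regions, with 1 point per library and a cross where the list had no peak; the horizontal axis names each region with its distance from the nearest gene end. Sdc4 region 2 reaches 22.5, and crosses stand in both siControl lists for Sdc3.

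**Figure D2:**
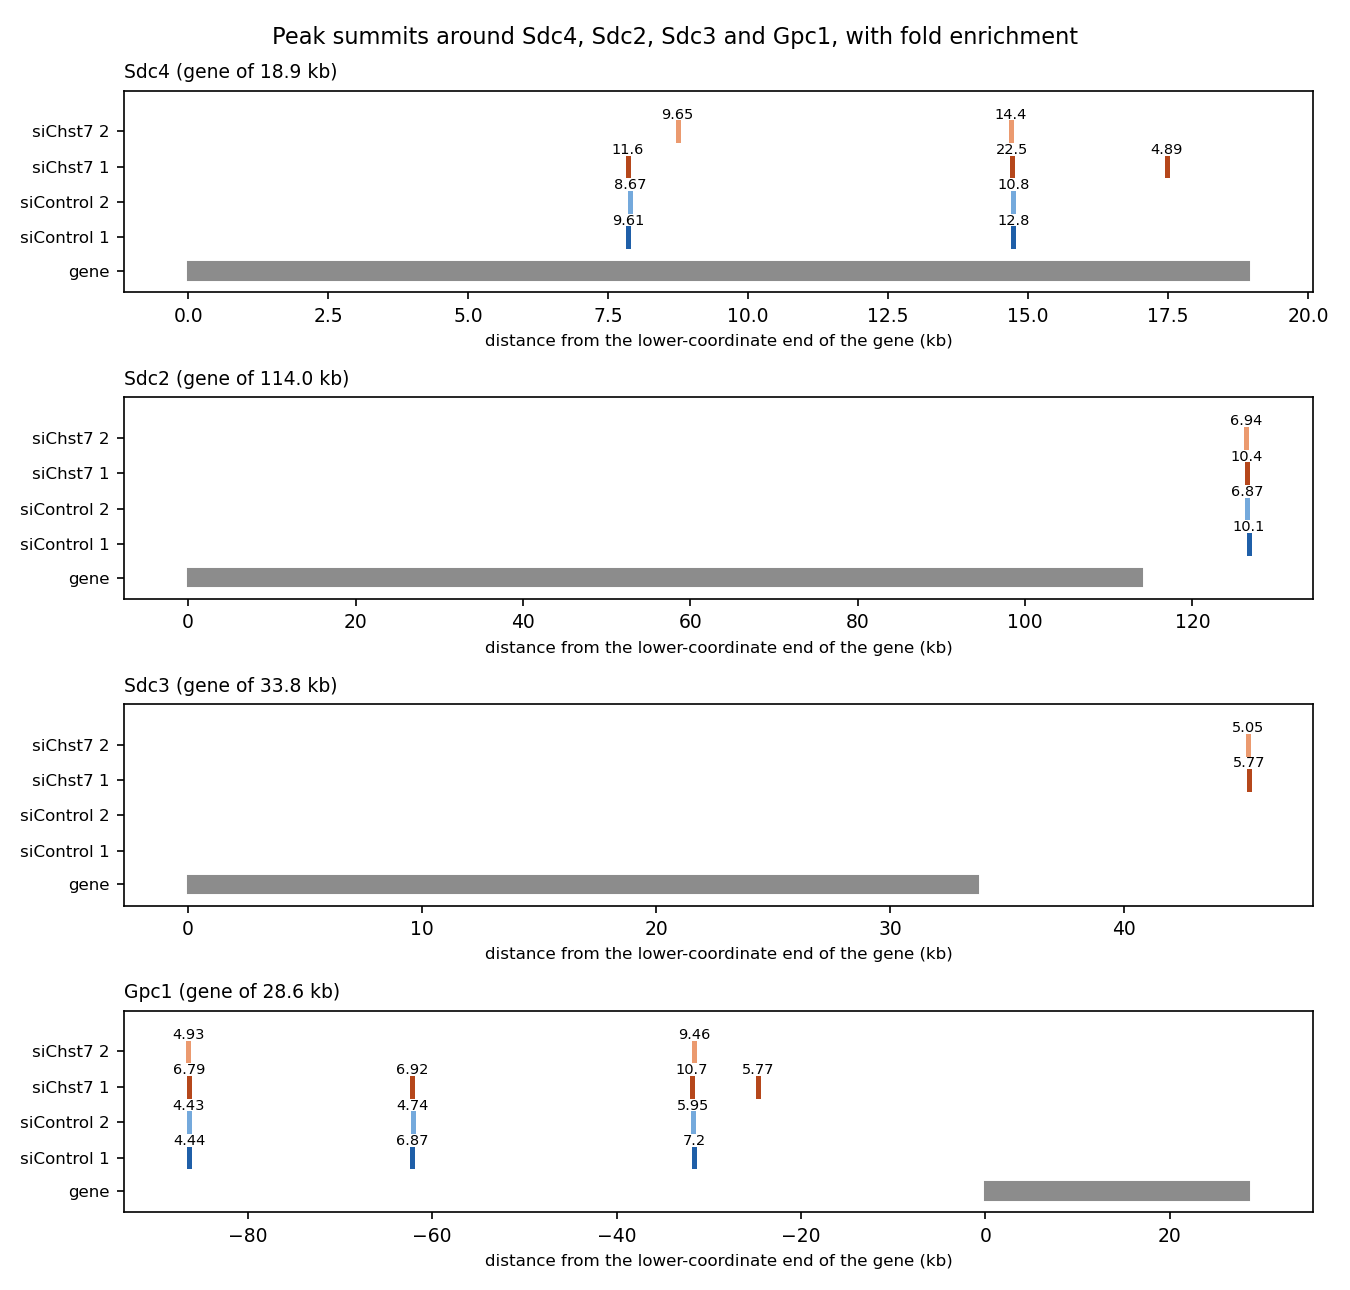
Summits of the peaks in the 4 lists (colored ticks, with the fold above each) around 4 genes (grey bars), by distance in kb from the lower-coordinate end of the gene. The Sdc4 summits lie inside the gene, while those of Sdc2, Sdc3 and Gpc1 lie outside.

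Gpc6 and the matrix genes had no region by the distance rule. Gpc6 encodes glypican-6 in a gene of 1054.6 kb (chr14:116924920-117979529). A region inside it, chr14:117519457-117519696, lay 459.9 kb from the nearer end and was called in siControl replicate 2 alone, with a fold of 4.51. Vcan (chr13:89655309-89743027) had its nearest summit 771.1 kb away, and 9.72% of 21887 genes on chromosomes with a region were as far from one, where the median gene was 58.5 kb away. Dcn (chr10:97479500-97518163) and Lum (chr10:97565501-97572703) are neighbors. The nearest region to both was chr10:97313216-97313738, 166.1 kb from Dcn and 252.1 kb from Lum. That region was in siControl replicate 1 with a fold of 6.61 and in siChst7 replicate 2 with 4.72. Bgn (chrX:73483601-73495936) was the exception in distance. A region called in 2 lists lay 21.5 kb from it, at chrX:73517300-73517630, and went to the nearer gene, Atp2b3. The 100 kb limit thus fell between the far Gpc1 region at 86.4 kb and the Dcn region at 166.1 kb.

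By role, 4 of the 6 cell-surface genes and 0 of the 4 matrix genes owned a region. Over all genes 25.1% did, so 0 of 4 is near that share. Outside the members, the basement membrane genes Hspg2 and Col18a1 owned 6 and 5 regions. All 5 member regions that stood in all 4 lists were at Sdc2, Sdc4 and Gpc1. The stretch of genome nearest to each gene sets how many regions it can own. It was 890.1 kb for the 6 surface genes and 400.7 kb for the 4 matrix genes. Per Mb of such genome, the surface genes had 10.1 regions and the matrix genes 0, against 6.49 over all genes. The difference between these roles was not tested.

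Set beside all genes, 4 of 10 members owned a region in at least 1 list, where 25.1% of 21900 genes did. A region in both siControl lists was owned by 3 of 10 (Sdc2, Sdc4 and Gpc1; 11.0% of all genes). For both siChst7 lists the count was 4 of 10, with Sdc3 added (11.3% of all genes). In all 4 lists it was 3 of 10 (8.32% of all genes). The median member had 0 regions, as had the median gene. The members had more genome to themselves, with a median of 111.3 kb nearest to a member against 46.4 kb for all genes. Per Mb of such genome, members had 6.97 regions against 6.49 over all genes, and 3.87 regions in all 4 lists against 1.42. With 10 genes these are descriptions, and the members were not tested against other genes.

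Of the 9 member regions, 5 were in all 4 lists (22.0% of all 12655 regions were) and 2 were in 1 list (46.7% of all). No member region was siControl-only, meaning called in each siControl library but in no siChst7 library (1.60% of all regions). The Sdc3 region was siChst7-only, meaning the reverse (3.88% of all regions). Without siChst7 replicate 1, the Gpc1 region at 62.2 kb became siControl-only. Without siChst7 replicate 2, the regions called in siChst7 replicate 1 alone joined the siChst7-only class, for 3 in all. Signal below a list's threshold would not appear in that list. Counted by genes, 0 of 10 members had a siControl-only region (0.795% of all genes) and 1 of 10 a siChst7-only region (1.81% of all genes).

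At 4 of the 5 regions in all 4 lists, both siChst7 folds were above both siControl folds, and at 0 of 5 they were below. The plan used folds to rank peaks within a list and not to compare lists, so this count was not planned. Over all 2785 such regions the shares were 21.9% above and 12.6% below. The 4 regions belong to Sdc4 and Gpc1, 2 each, so they are not independent of each other, and 1 of them is the weak Gpc1 region at 86.4 kb. After each fold was divided by the median of its list over these 2785 regions, the count was 4 again (19.9% of all). The scaled folds of the strongest Sdc4 region were 1.44 and 1.34 in siControl and 2.12 and 1.87 in siChst7. At the wider Sdc4 region they were 1.08 and 1.07 in siControl and 1.09 and 1.26 in siChst7, which differ little. There the fold of siChst7 replicate 2 belongs to a summit apart from those of the other lists. With summits and 100 bp on each side, 2 member regions stayed in all 4 lists, and the order of folds was not recounted. A fold depends on the local background of its own library, and no test of binding strength between the groups was made.

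**Figure D3:**
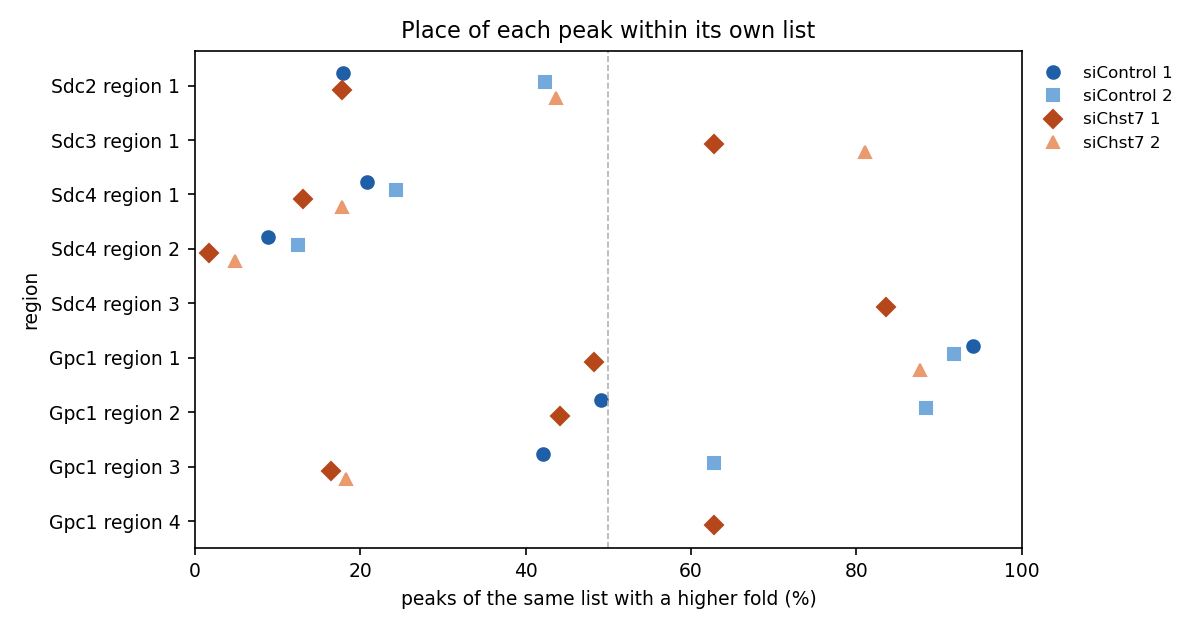
Share of peaks in the same list with a higher fold (horizontal axis, percent; left is stronger) for each member region and library; the dashed line marks the middle of a list. The strongest Sdc4 region lies between 1.67% and 12.4%, and the Sdc3 region at 62.8% and 81.0%.

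Both siControl lists had 6 peaks at the 10 genes (mean 6 ± 0, SD, n = 2). The siChst7 lists had 9 and 6 (mean 7.5 ± 2.12, SD, n = 2). The 3 further peaks of siChst7 replicate 1 came with the longest list. At equal list length the numbers were 5 and 4 in siControl and 4 and 6 in siChst7. As a share of the list, the peaks were 0.0928% and 0.103% in siControl and 0.0886% and 0.127% in siChst7. The exact 95% Clopper-Pearson intervals, which cover counting error only, ran from 0.0340% to 0.276% over the 4 lists. The difference of the mean log2 number plus 1, siChst7 minus siControl, was 0.26 (two-sided exact permutation over the 4 libraries, p = 1). Only siChst7 replicate 1 differed in its count, so every arrangement gives a difference of the same size and this p was fixed. The smallest p comes from 2 of 6 arrangements of the libraries, so no difference could have passed 0.05, and p-values over these libraries measure a spread that may be technical.

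The other proteoglycan genes place these 10 in their family. Of 28 others, 12 owned a region in at least 1 list, 6 in both siControl lists, 7 in both siChst7 lists and 6 in all 4 lists. Over all genes the shares were 25.1%, 11.0%, 11.3% and 8.32%. Per Mb of nearest genome the others had 11.3 regions and 4.39 in all 4 lists, where the members had 6.97 and 3.87. The 6 were Cd44, Tgfbr3, Cspg4, Hspg2, Col18a1 and Gpc3. Cd44, the hyaluronan receptor, had 6 regions in all 4 lists, and Tgfbr3, the co-receptor betaglycan, had 3. Cspg4 encodes NG2, a membrane proteoglycan. A region inside it (chr9:56870466-56873699) had folds of 10.8 and 11.5 in siControl and 12.7 and 9.13 in siChst7, with overlapping groups. Hspg2 and Col18a1 encode the basement membrane proteoglycans perlecan and collagen XVIII, and each had 2 regions in all 4 lists. Of the 16 regions of these genes in all 4 lists, 4 had both siChst7 folds above both siControl folds, at Cd44 (2 regions), Tgfbr3 and Cspg4, and 1 had both below. Over all 2785 such regions the shares were 21.9% above and 12.6% below, so 4 of 16 is near the share of all regions. The highest siChst7 fold among these 4 was 4.0 kb from Cd44 (chr2:102905423-102906347), with 8.11 and 6.77 in siControl and 19.0 and 11.4 in siChst7. Higher siChst7 folds were thus not particular to the members, nor to this family.

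Among the glypicans, Gpc3 had a region 51.4 kb away (chrX:52220285-52221315) with folds of 11.6 and 9.94 in siControl and 16.1 and 8.23 in siChst7. That region lay between Gpc3 (chrX:52272426-52613974) and Gpc4 (chrX:52051007-52164923), both on the minus strand. It was thus beyond the 3′ end of Gpc3 and upstream of Gpc4, and went to Gpc3 by the nearest gene end alone. Gpc4 had the only siChst7-only region among the 28 others, 13.3 kb away (chrX:52037725-52037955), with folds of 2.68 and 2.64. Both peaks were weak, as the median folds of the siChst7 lists were 6.61 and 6.65. No region of the 28 was siControl-only. Over all 38 genes, 0 of 11 small leucine-rich proteoglycan genes owned a region in both libraries of either group. Neither did any of the 4 genes grouped as hyaluronan-binding, a grouping that left Cd44 among the other surface genes. Cd44 also binds hyaluronan and had 6 regions in all 4 lists. The counts of 0 include Bgn, Dcn, Lum and Vcan. With 11.0% and 11.3% of all genes owning a region in both libraries of a group, so few genes do not set these roles apart. Prelp, Omd and Podn, of the small leucine-rich genes, and Bcan, of the hyaluronan-binding genes, had 1 region each, in 1 or 2 lists, and are named after their values were seen. Chst7, the siRNA target, owned no region.

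**Figure D4:**
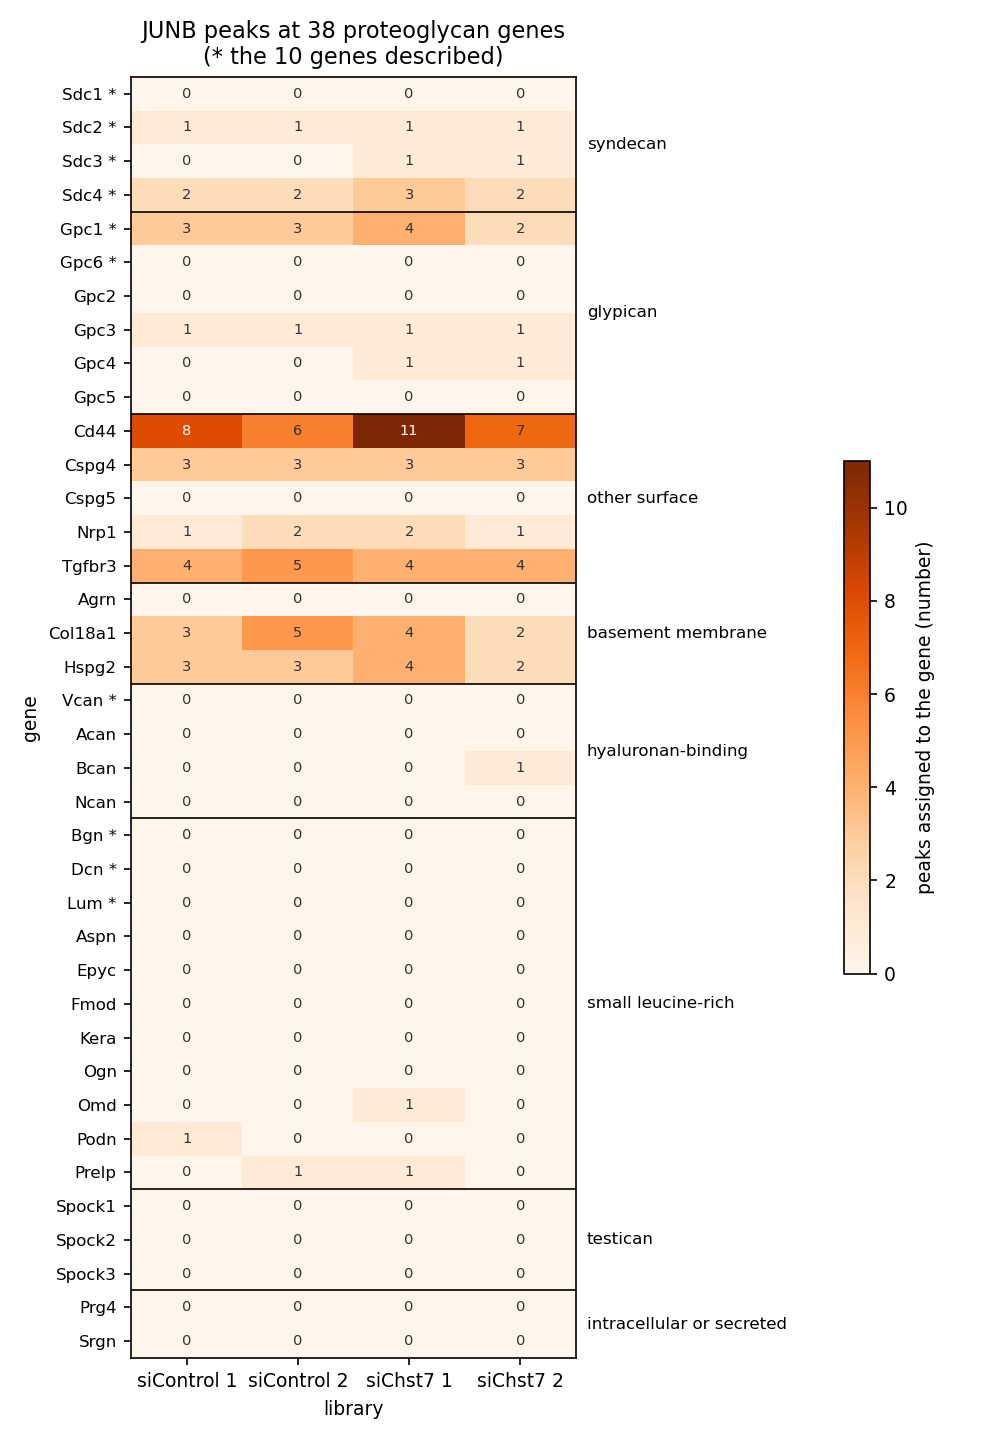
Number of JUNB peaks assigned to each of 38 proteoglycan genes (rows, grouped by role; a star marks the 10 described) in the 4 libraries (columns), shaded by number. Counts above 1 stand among syndecan, glypican, other surface and basement membrane genes, and Cd44 has 6 to 11.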

How the data were processed

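The data were JUNB CUT&RUN peak lists of 2 siControl and 2 siChst7 libraries. Per the submitters' processing notes, reads were handled with Bowtie2 and MACS3 on mm10; versions, settings and the control library are not given in the sources used here. Each deposited list holds, per peak, a summit, a fold enrichment (a ratio) and p and q as −log10, as the authors' peak caller gave them. Depth is stated in the labels as 30 M reads a library and could not be measured here.

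Peaks sharing 1 bp or more made up a region, and each region's median summit was given to the protein-coding gene (RefSeq, GRCm38.p6, 21900 genes) with the nearest end within 100 kb. All 10 members and 28 other proteoglycan genes matched. Coordinates are 1-based. No genome sequence was used, so the planned motif search at summits was replaced by promoters. The 10 members are all named, and of the 28 others those with a region in all 4 lists or a group-only region; Prelp, Omd, Podn and Bcan were named in addition after their values were seen. The members and lists were chosen with earlier results of these data known. The joining and assignment recovered 1988 of 1988 simulated regions with their classes and gene distances over 21900 genes. The simulated summits lay close to gene starts and were the same in every list. Spread summits and assignment at long distances were thus not tried. Peaks at members were compared by exact permutation of the libraries. Alternatives were reciprocal overlap of 50%, summits with 100 bp on each side, q of 0.001, fold of 5, equal list length, 20 kb, gene bodies with 5 kb, leaving out each library and a replicate block. The work used pandas 2.3.3, SciPy 1.17.1 and NumPy 2.4.6 in Python 3.11.15, and Matplotlib 3.10.9 for plots.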

Additional observations from a re-analysis of the deposited data

How the results depend on the processing

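The counts of 3 and 4 member genes with a region in both siControl and both siChst7 lists stayed within 1.5 times, except under assignment to gene bodies flanked by 5 kb: then 1 and 1 gene (Sdc4) remained, with 2 regions in all 4 lists and 0 siChst7-only. The 5 regions in all 4 lists became 2 with summit windows and 3 with assignment within 20 kb, which drops Gpc1 by construction. The 1 siChst7-only region became 2 at a q of 0.001 and 0 at equal list length. Leaving out 1 library gave 0 to 1 siControl-only regions, 1 to 3 siChst7-only regions, 5 to 6 regions in every remaining list and a log2 difference of 0 to 0.51. A region then has fewer lists to be called in, so the count in every remaining list would hold or rise and is no check. The count of 4 regions with higher siChst7 folds, itself not planned, was 4 by rank. Without 1 library it was 4 to 5, but leaving a library out cannot lower this count, so that range is no check. The scaling, rank and leave-out alternatives for this count of higher siChst7 folds were chosen after seeing the data. The replicate block gave a log2 difference of 0.26 (exact permutation within pairs, p = 1). Only siChst7 replicate 1 differed in its count, so this p could take no other value and adds nothing. The differences between replicates 1 and 2 correlated at −0.03 for presence of a peak over 12655 regions and at 0.06 for the log2 fold over 2785, so the labels' numbers were not taken as pairs. The summit motif search and its windows of 50 and 250 bp were not run. Peak lists without reads limit every count here to what passed each list's threshold.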
